A study of Mus musculus with 3 samples.

Results

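Respiratory complex I, NADH:ubiquinone oxidoreductase, is built from subunits encoded in the nucleus and in the mitochondrial genome, and its nuclear genes carry the symbol stem *Nduf*. The members were picked by that symbol in the gene list of the expression matrices, with earlier results of these data known. The symbol matched 47 of 32285 genes. They were 37 subunits (7 core and 30 accessory), 8 assembly factors named *Ndufaf*, and *Ndufa4* and *Ndufa4l2*, which share the stem and were kept apart. All 37 subunits and all 8 assembly factors passed the minimum of 20 UMIs (unique molecular identifiers, 1 for each captured transcript) over the kept cells, *Ndufa4* also passed, and *Ndufa4l2* did not. Of all genes, 15154 passed.

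The study asked how bone marrow derived macrophages (BMDMs) respond to lipoproteins purified from *Borrelia burgdorferi*, the agent of Lyme disease (*Bb*LP). The marrow came from female C3H/HeN mice, labelled as 6-8 weeks old, and was matured in medium conditioned by L929 cells, a source of macrophage growth factor. *Bb*LP was given at 1 µg/mL. LP1 names the cells collected 1 hour later and LP4 those collected after 4 hours. Ctrl cells, labelled untreated, were given PBS and collected at 4 hours, so LP1 has no control of its own time. The cells of 3 wells were pooled before droplet capture into 1 library per condition, and their 3′ ends were sequenced. No condition therefore has a replicate, the spread between cultures was not measured, and no test between conditions was run.

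Complex I takes electrons from NADH, passes them over a flavin and a chain of iron-sulphur clusters to ubiquinone, and pumps protons across the inner mitochondrial membrane. Its core subunits, which bacteria also have, carry the flavin, the clusters and the proton pumps. The core subunits of the membrane arm are encoded in the mitochondrial genome and those of the matrix arm in the nucleus. The accessory subunits surround them and are needed for assembly and stability. The complex is L-shaped: the matrix arm holds the site of NADH oxidation, and the membrane arm holds the pumps. In macrophages it is known both as the entry of electrons into respiration and as a source of reactive oxygen species.

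The promoters of the members are shown first, for a short sequence that several of them share at the start codon. RefSeq promoter windows on GRCm38.p6, from 250 bases before to 50 bases after the transcription start, were found for 33 of the 37 subunits. The letters AAGATGGC, the core of the site of the zinc finger factor YY1, were searched on both strands and occurred in 7 of 33 subunit windows (21.2%), compared with 862 of 27025 genes (3.19%). In all 7 the ATG within these letters is also the annotated start codon, so the match lies on the coding strand at the first codon. The 27025 genes were not limited to those with a start codon inside the window, and the share among such genes was not counted. The 30 bases around each match are given 5′ to 3′ on the coding strand, with the match in capitals.
Ndufc1: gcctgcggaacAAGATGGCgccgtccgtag
Ndufa9: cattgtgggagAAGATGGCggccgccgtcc
Ndufa3: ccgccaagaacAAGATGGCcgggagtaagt
Ndufs7: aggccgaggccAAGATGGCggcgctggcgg
Ndufs6: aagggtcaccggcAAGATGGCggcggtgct
Ndufs4: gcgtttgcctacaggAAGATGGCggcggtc
Ndufb8: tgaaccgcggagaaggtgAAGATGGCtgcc
They lie at chr3:51408915-51408944 (minus strand), chr6:126849097-126849126 (minus), chr7:3617384-3617413 (plus), chr10:80249462-80249491 (plus), chr13:73328433-73328462 (minus), chr13:114388045-114388074 (minus) and chr19:44555393-44555422 (minus), in the same order. Among these windows, only *Ndufs7* belongs to a core subunit. Other motifs were searched in the same way. The NRF1 site GCATGCGC was in 9.09% of subunit windows and 3.05% of genes, the ETS site CCGGAAG in 12.1% and 9.93%, the GC box GGGCGG in 45.5% and 38.2%, CCAAT in 30.3% and 41.1%, and TATAAA in 12.1% and 15.7%. The end of the ETS letters can overlap the start of the YY1 letters, though no subunit had both. A match is a description of the letters and does not show that a factor was bound.

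After the limits on UMIs, genes and mitochondrial share, 6071 Ctrl, 5065 LP1 and 4670 LP4 cells were kept, with 35688939, 52475723 and 61402275 UMIs. A Ctrl cell held a median of 5133 UMIs, an LP1 cell 9343 and an LP4 cell 11784, and the median mitochondrial share was 1.97%, 2.84% and 3.17%. Barcodes shared between libraries were few, 10 between Ctrl and LP1, 7 between Ctrl and LP4 and 4 between LP1 and LP4. All 8 macrophage markers were detected in Ctrl, LP1 and LP4, with *Csf1r* at 769, 522 and 421 CPM and *Lyz2* at 9209, 9684 and 8717 CPM. In LP4, 5 of the 8 were below Ctrl and 3 above, with log2 ratios from -1.40 for *C1qa* to 1.16 for *Fcgr1*. CPM is the count of a gene over the kept cells scaled to a library total of 1000000 UMIs. The 10 neutrophil markers summed to 564, 465 and 749 CPM and the 8 dendritic cell markers to 152, 149.9 and 153 CPM. The 9 markers of lymphoid, erythroid and stromal cells summed to 2.27, 3.70 and 10.1 CPM, with *Cd3e* and *Hbb-bs* at 0 in every library. The 10 cycling markers summed to 513, 621 and 578 CPM.

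The nuclear subunits took a smaller share of the RNA after *Bb*LP. Together they made up 4946 CPM in Ctrl, against 4028 in LP1 and 3535 in LP4, which is 81.4% and 71.5% of the Ctrl level. The log2 ratio of these sums to Ctrl was -0.30 (95% counting interval -0.31 to -0.29) at 1 hour and -0.48 (-0.49 to -0.48) at 4 hours. All intervals here cover counting error only and would not include a difference between cultures. Without the 5 most abundant subunits of Ctrl, the log2 ratios of the sums of the other 32 were -0.22 and -0.35.

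CPM is thus a share of the library, and the libraries differ in UMIs per cell. As counted, a kept cell held a mean of 29.1 subunit UMIs in Ctrl, against 41.7 in LP1 and 46.5 in LP4, beside 5879, 10361 and 13148 UMIs in all. The subunit count per cell was therefore higher after *Bb*LP while its share was lower, and a higher RNA content per cell and a deeper library cannot be told apart from these files.

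Gene by gene, the median log2 ratio of the 37 subunits was -0.19 in LP1 over Ctrl and -0.43 in LP4 over Ctrl, beside -0.05 and -0.16 for the 15154 genes. At 1 hour, 23 of 37 subunits were below Ctrl, where 55.6% of all genes were. A difference of at least 1.5-fold was seen downward for 10 subunits (27.0%) and upward for 3. Among all genes it was seen downward for 10.9% and upward for 6.71%, and downward for 2.83% of the genes with at least 10 CPM in a library, a minimum that all 37 subunits meet. At 4 hours, 29 of 37 subunits were below Ctrl, compared with 57.7% of all genes. The 1.5-fold difference was then seen downward for 14 subunits (37.8%) and upward for 4, where the shares of all genes were 30.8% and 20.6%. Of the genes with at least 10 CPM, 23.1% were lower by that much at 4 hours, beside 37.8% of the subunits, and at 1 hour the like shares were 2.83% and 27.0%. The counting interval lay below 0 for 19 subunits and above 0 for 9 in LP1, and below 0 for 27 and above 0 for 7 in LP4. How many of all genes had such intervals was not counted, so these counts have no background beside them. Intervals narrow as UMIs rise, so an abundant gene can have one that leaves out 0 at a small ratio.

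**Figure D1:**
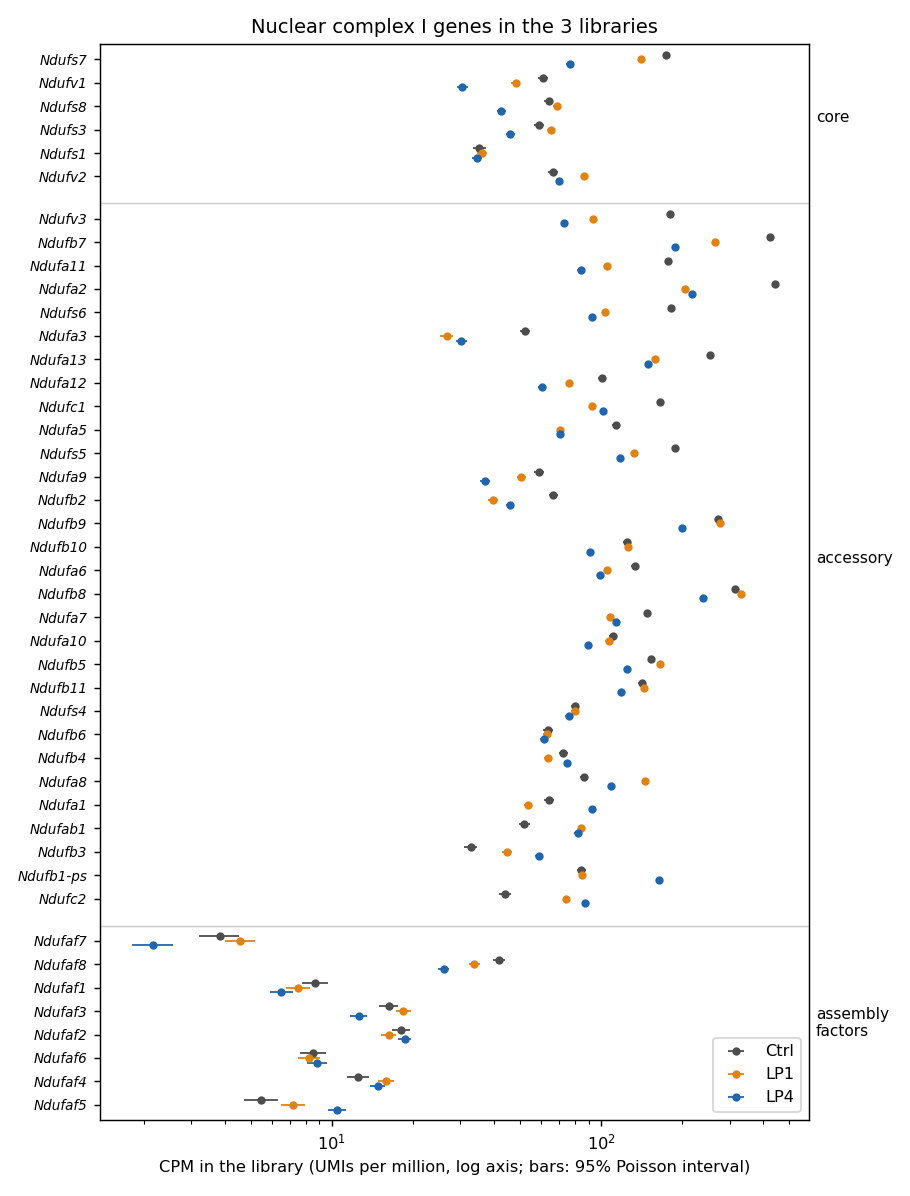
Level of 36 of the 37 nuclear complex I subunits and each *Ndufaf* assembly factor in Ctrl (grey), LP1 (orange) and LP4 (blue), in CPM on a log axis, 1 library each, with 95% Poisson intervals as bars. Ctrl lies to the right of both other libraries for most accessory subunits near the top of their block, such as *Ndufa2* at 441 CPM against 204 and 218, and to the left for those at the bottom, such as *Ndufc2* at 43.9 against 74.3 and 86.9.

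Scaling bears on these counts. Scaled by TMM (trimmed mean of M values) or by the median of ratios, the median gene with at least 10 CPM moved up by 0.17 or 0.21 in LP4 over Ctrl on the log2 scale. The number of subunits lower by at least 1.5-fold in LP4 became 9 or 7, with 5 higher, while in LP1 it stayed at 10 lower and 3 higher under both. Of those genes, 23.1% were lower and 20.0% higher by 1.5-fold in LP4 over Ctrl as CPM, 16.4% and 26.3% by TMM, and 15.1% and 27.6% by the median of ratios. In LP1 over Ctrl the like shares were 2.83% and 4.23% as CPM, 1.88% and 5.63% by TMM, and 1.81% and 5.71% by the median of ratios. Under both other scalings, 19 subunits were below Ctrl in LP1 and 26 in LP4, and 20 were lower in LP4 than in LP1. How many of all genes were lower under them was not counted, so these directions have no background beside them. The median of the genes with at least 10 CPM lay above 0 in each of these comparisons. Relative to the median of those genes, which no scaling alters, the subunit median was lower by 0.17 (log2) in LP1 and by 0.35 in LP4.

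The core subunits as a group were near Ctrl at 1 hour and lower at 4 hours. Their median log2 ratio was 0.03 in LP1 and -0.39 in LP4, and their summed level was 571 CPM in Ctrl, against 554 in LP1 and 386 in LP4. None of the 7 was lower by 1.5-fold in LP1, and 2 were in LP4, *Ndufs7* and *Ndufv1*, a share of 28.6% beside 30.8% of all genes.

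*Ndufs7*, which carries the last iron-sulphur cluster before ubiquinone, measured 174 CPM in Ctrl, against 140.3 in LP1 and 76.3 in LP4. The log2 ratio to Ctrl was -0.31 (-0.36 to -0.26) in LP1 and -1.19 (-1.24 to -1.13) in LP4. It had the lowest ratio of the core at 4 hours, and most of that difference lay between 1 and 4 hours, with -0.88 in LP4 over LP1. *Ndufv1*, which binds NADH and the flavin, measured 60.9, 48.2 and 30.5 CPM in Ctrl, LP1 and LP4, with a log2 ratio of -0.996 (-1.09 to -0.91) in LP4. *Ndufs8*, which holds the pair of clusters before that of *Ndufs7*, measured 63.8, 68.5 and 42.7 CPM, with log2 ratios of 0.10 in LP1 and -0.58 (-0.66 to -0.50) in LP4. These 3 genes were the core subunits lower by at least 1.5-fold in LP4 over LP1.

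*Ndufs3*, a subunit at the base of the matrix arm, measured 58.8, 64.9 and 46.0 CPM in the order Ctrl, LP1 and LP4, with log2 ratios of 0.14 and -0.35. Like *Ndufs8*, it was above Ctrl at 1 hour and below it at 4 hours.

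*Ndufs1* and *Ndufv2* were the core subunits nearest to Ctrl at 4 hours. *Ndufs1*, the largest nuclear subunit, with several iron-sulphur clusters, measured 35.3 CPM in Ctrl, against 36.1 in LP1 and 34.5 in LP4, and its log2 ratios of 0.03 (-0.07 to 0.14) and -0.03 (-0.14 to 0.07) were within counting error of 0. *Ndufv2*, which carries a cluster beside the flavin, measured 66.2, 86.4 and 70.0 CPM, with log2 ratios of 0.39 (0.31 to 0.46) in LP1 and 0.08 (0.01 to 0.15) in LP4. The 3 subunits that together oxidise NADH, *Ndufv1*, *Ndufv2* and *Ndufs1*, were at -0.996, 0.08 and -0.03 on the log2 scale at 4 hours. In cells with 5000 to 10000 UMIs they were at -1.17, -0.19 and -0.26, all below Ctrl. Under both other scalings, *Ndufs1* in LP4 lay above 0.

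The accessory subunits were lower already at 1 hour. Their median log2 ratio was -0.24 in LP1 and -0.44 in LP4, and their sum was 4375, 3474 and 3149.7 CPM in Ctrl, LP1 and LP4. Of the 30, 10 (33.3%) were lower by at least 1.5-fold in LP1 and 12 (40%) in LP4, beside 10.9% and 30.8% of all genes. In the other direction, 3 and 4 were higher by as much, where 6.71% and 20.6% of all genes were. The median of the core exceeded that of the accessory subunits by 0.27 on the log2 scale in LP1 and by 0.05 in LP4. That comparison leaves transcript length aside. Relative to other genes of like length, described further below, the core lay at a median of -0.0018 in LP1 and -0.24 in LP4. The 29 accessory subunits with a length lay at -0.077 and -0.13, so the order at 4 hours was the reverse. As 7 and 30 genes of the same libraries, the classes are described and not tested.

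*Ndufv3*, a small subunit bound to the NADH oxidising tip, had the lowest ratio of all subunits at 4 hours. It measured 179.9 CPM in Ctrl, against 93.4 in LP1 and 73.1 in LP4, with log2 ratios of -0.95 and -1.30 (-1.35 to -1.24). *Ndufa2*, a matrix arm subunit with a thioredoxin-like fold and the most abundant subunit of Ctrl, measured 441 CPM in Ctrl, against 204 in LP1 and 218 in LP4. Its ratio was the lowest of all subunits at 1 hour, -1.11 (-1.15 to -1.08), and it was no lower at 4 hours, with -1.01 (-1.05 to -0.98). *Ndufb7*, a subunit on the intermembrane face of the membrane arm, measured 422, 264 and 188 CPM, with log2 ratios of -0.68 and -1.16.

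Small subunits of both arms made up the rest of the lowest ratios. *Ndufa11*, a membrane arm subunit, measured 177 CPM in Ctrl, against 106 in LP1 and 83.9 in LP4, with log2 ratios of -0.75 and -1.08. *Ndufs6*, a zinc-binding subunit of the matrix arm, measured 182, 103 and 92.8 CPM, with -0.81 and -0.97. *Ndufa3*, a small membrane arm subunit, measured 52.2, 26.7 and 30.3 CPM, with -0.97 and -0.79. *Ndufc1*, a membrane arm subunit, belonged to the lowest at 1 hour only, at 165, 92.5 and 102 CPM, with -0.83 and -0.69. For *Ndufa3*, *Ndufc1* and *Ndufa2*, the level in LP4 was slightly above that in LP1, by 0.18, 0.14 and 0.10 on the log2 scale.

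A smaller set of accessory subunits was higher than Ctrl. *Ndufc2*, a membrane arm subunit, measured 43.9 CPM in Ctrl, against 74.3 in LP1 and 86.9 in LP4, with log2 ratios of 0.76 (0.68 to 0.85) and 0.99 (0.91 to 1.07). *Ndufb3*, a membrane arm subunit and the least abundant of all in Ctrl, measured 32.8, 44.7 and 58.8 CPM, with 0.45 and 0.84. *Ndufab1*, the mitochondrial acyl carrier protein, which sits in both arms and also serves fatty acid and lipoate synthesis, measured 51.8, 84.5 and 81.8 CPM, with 0.71 (0.63 to 0.78) and 0.66 (0.58 to 0.74). *Ndufc2* and *Ndufb3* were higher at each later time, while *Ndufab1* stood at about the same level at both. In cells with 5000 to 10000 UMIs, *Ndufab1* was at 0.43 in LP1 and 0.11 in LP4, under 1.5-fold at both times.

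The others were higher mainly at one of the times. *Ndufa8*, a subunit on the intermembrane face, measured 86.6 CPM in Ctrl, against 145 in LP1 and 108 in LP4, with log2 ratios of 0.74 and 0.32. *Ndufa1*, a small membrane arm subunit encoded on the X chromosome, measured 63.9, 53.5 and 92.8 CPM, with -0.26 and 0.54, so it was below Ctrl at 1 hour and above it at 4 hours. *Ndufb1-ps* measured 84.4, 85.3 and 164 CPM, with 0.01 and 0.96 (0.90 to 1.02). The annotation used here gives this locus (chromosome 12, 101968090 to 101977068, minus strand) as a noncoding RNA that shares a promoter with a neighbour, and its exons overlap those of *Cpsf2* on the other strand. *Ndufb5*, a membrane arm subunit, was among the 5 highest at 1 hour at 153, 166 and 125 CPM, although its log2 ratio was only 0.11, and at 4 hours it was -0.30.

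The other 16 accessory subunits lay between -0.74 and 0.08 (log2) in LP1 and between -0.76 and 0.05 in LP4. They spanned 58.7 to 313 CPM in Ctrl and 37.1 to 239.9 CPM in LP4. Of these, 12 were below Ctrl at 1 hour and 15 at 4 hours, where 55.6% and 57.7% of all genes were. At least 1.5-fold lower were 3 at 1 hour and 5 at 4 hours, beside 10.9% and 30.8% of all genes. The 5 of 16 are thus near the share of all genes.

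All 16 are given here. They were left after the rule for named genes took the lowest and highest accessory ratios, so their values lie between those by selection. Of the 16, *Ndufa13*, *Ndufa12*, *Ndufa5*, *Ndufs5* and *Ndufa9* were lower by 1.5-fold at 4 hours. TMM left only *Ndufa13* past 1.5-fold and the median of ratios none. *Ndufa13*, also known as GRIM-19 for its part in cell death, measured 253, 159 and 149.7 CPM in the order Ctrl, LP1 and LP4, with log2 ratios to Ctrl of -0.67 and -0.76. *Ndufa12* stood at 100.5, 76.3 and 60.5 CPM and *Ndufa5* at 113, 70.6 and 70.5 CPM, both in the matrix arm. *Ndufs5*, on the intermembrane face, stood at 189, 133 and 118 CPM, and *Ndufa9*, near the ubiquinone site, at 58.7, 50.5 and 37.1 CPM. *Ndufa5* and *Ndufa13* had most of their difference at 1 hour, and *Ndufa9* had most of it between 1 and 4 hours.

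4 membrane arm subunits lay near Ctrl at 1 hour and below it at 4 hours. They were *Ndufb8* at 313, 331 and 239.9 CPM, *Ndufb9* at 272, 276 and 199 CPM, *Ndufb10* at 125, 126 and 91.3 CPM, and *Ndufb11* at 141, 144 and 118 CPM. Their log2 ratios at 4 hours were -0.38, -0.45, -0.45 and -0.26. They share the course of the core subunits *Ndufs3* and *Ndufs8*.

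The last 7 were not past 1.5-fold at 4 hours. *Ndufb2* was lowest at 1 hour, at 66.5, 39.8 and 45.9 CPM, with log2 ratios of -0.74 and -0.54. *Ndufa6* stood at 133, 105 and 98.9 CPM, *Ndufa7* at 148, 108 and 114 CPM, and *Ndufa10* at 111, 106 and 89.4 CPM. *Ndufb6* (63.6, 63.0 and 61.3 CPM), *Ndufs4* (79.97, 79.9 and 75.6 CPM) and *Ndufb4* (72.3, 63.5 and 74.7 CPM) had log2 ratios of -0.05, -0.08 and 0.05 at 4 hours. By TMM and by the median of ratios *Ndufb6* and *Ndufs4* were above Ctrl at both times and *Ndufa10* at 1 hour.

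**Figure D2:**
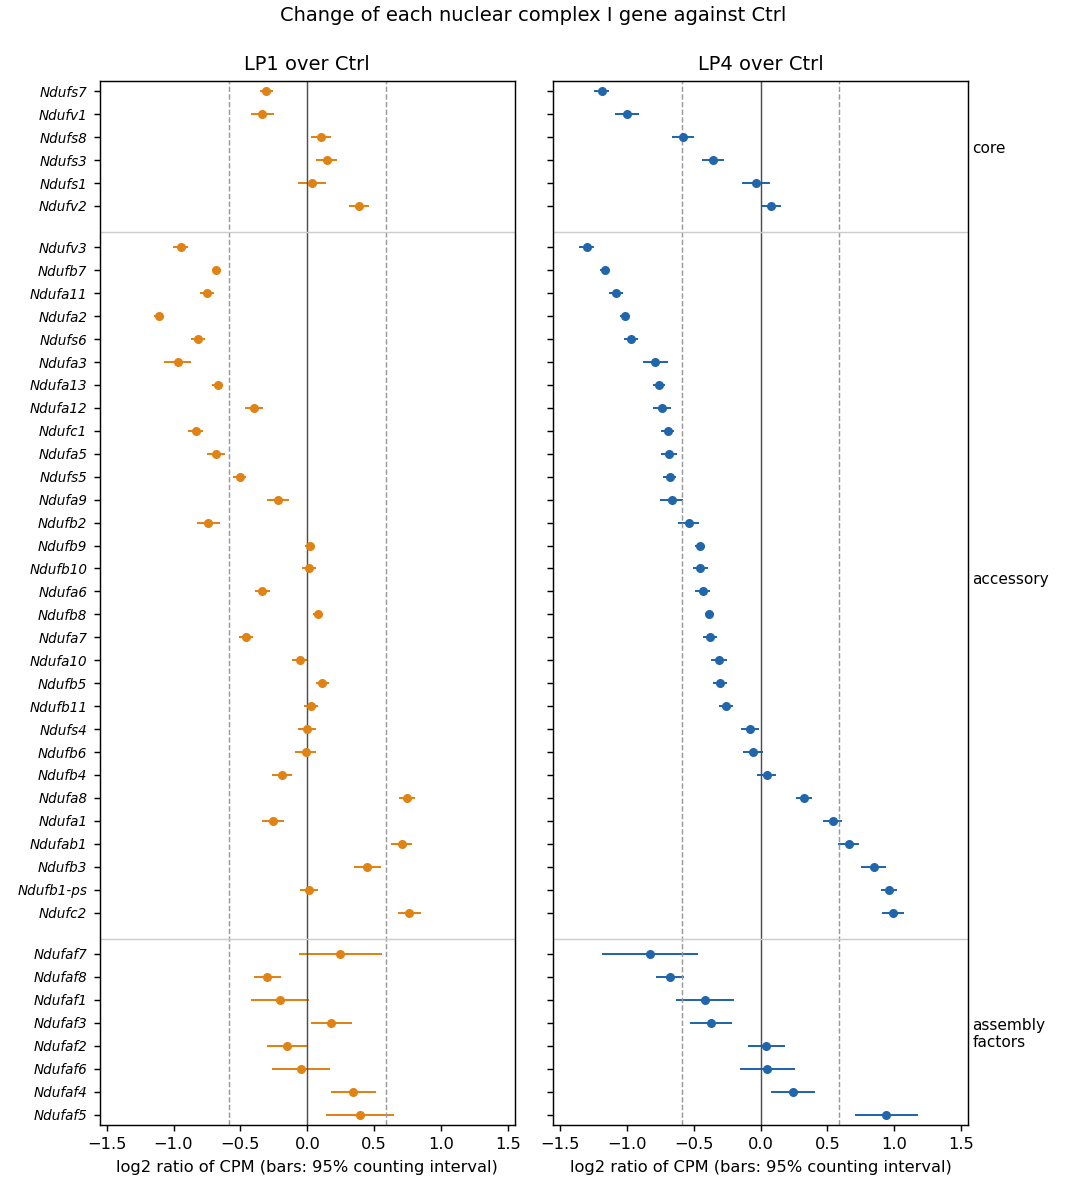
Log2 ratio of CPM to Ctrl for 36 of the 37 subunits and each *Ndufaf* assembly factor in LP1 (left) and LP4 (right), with 95% counting intervals as bars, a solid line at 0 and dashed lines at 1.5-fold. None of the core subunits passes the dashed lines in LP1 and 2 do in LP4, while 10 accessory subunits lie left of the lower line in LP1 and 12 in LP4.

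The subunits were also grouped by their place in the complex, as a description with no test. The 16 matrix arm subunits summed to 2007 CPM in Ctrl, against 1445 in LP1 and 1226 in LP4, with a median log2 ratio of -0.32 in LP1 and -0.62 in LP4. At 4 hours, 15 of these 16 were below Ctrl, 8 by at least 1.5-fold, and *Ndufv2* was above. The 20 membrane arm subunits summed to 2888, 2499 and 2227 CPM, with medians of -0.03 and -0.35. Of these, 14 were below Ctrl at 4 hours, 6 by at least 1.5-fold, and 3 were higher by as much, *Ndufc2*, *Ndufb3* and *Ndufb1-ps*. The share lower by 1.5-fold was 50% in the matrix arm and 30% in the membrane arm, beside 30.8% of all genes. Of all genes, 57.7% were below Ctrl at 4 hours and 20.6% were higher by 1.5-fold. The matrix arm thus had the lower median at both times. The membrane arm median of LP1 was 0.04 by TMM and by the median of ratios. By symbol, at 4 hours all 8 *Ndufs* genes were below Ctrl, compared with 10 of 13 *Ndufa* (with *Ndufab1*), 8 of 11 *Ndufb*, 1 of 2 *Ndufc* and 2 of 3 *Ndufv* genes.

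Between 1 and 4 hours, the median log2 ratio of the 37 subunits was -0.17, beside -0.11 for all genes. In LP4 over LP1, 27 subunits were lower, where 56.5% of all genes were, 3 were lower by at least 1.5-fold and 2 higher. The share of all genes lower by that much was 25.3%, or 18.5% of those with at least 10 CPM, and the share higher was 18.8%. The 2 that were higher were *Ndufb1-ps* (0.94) and *Ndufa1* (0.79). Core subunits were lower by a median of 0.50, all 7 in that direction as CPM and all but *Ndufs1* in the other scalings, and accessory subunits by 0.09, a value that was above 0 in other scalings, 0.01 by TMM and 0.04 by the median of ratios. The core median was thus 0.41 below the accessory median over this interval, and the order of the classes was the reverse of that in LP1 over Ctrl. The same LP1 library enters both ratios, on opposite sides, so the 2 orders are not independent.

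Taking both steps together, 16 subunits were lower at each step, 11 were higher at 1 hour and then lower, 7 were lower and then higher, and 3 were higher at each step. Of the core subunits described, *Ndufs7* and *Ndufv1* belonged to the first set and *Ndufs1*, *Ndufs3*, *Ndufs8* and *Ndufv2* to the second. The third set was entirely accessory, *Ndufc1*, *Ndufb2*, *Ndufa3*, *Ndufb4*, *Ndufa7*, *Ndufa2* and *Ndufa1*. The last was *Ndufb3*, *Ndufc2* and *Ndufb1-ps*. These counts use the sign of the CPM ratio alone, and the LP1 value of a gene enters both of its steps. The same patterns were not counted over all genes, of which 55.6% were lower in LP1 over Ctrl and 56.5% in LP4 over LP1. Some steps were within counting error, and TMM and the median of ratios turned the sign of 4 in the first step and 7 in the next.

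The assembly factors build the complex and do not stay in it. The 8 named *Ndufaf* were scarce, at 115, 112 and 100.03 CPM in all. Their median log2 ratio was 0.07 in LP1 and -0.16 in LP4, which was 0.01 by TMM and 0.04 by the median of ratios. No factor was past 1.5-fold in LP1, and in LP4 2 of 8 were lower and 1 was higher, where 30.8% and 20.6% of all genes were.

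*Ndufaf5*, which hydroxylates an arginine of NDUFS7, had the highest ratio at 4 hours, at 5.46 CPM in Ctrl, against 7.17 in LP1 and 10.5 in LP4, with log2 ratios of 0.39 (0.14 to 0.65) and 0.94 (0.71 to 1.18). *Ndufaf8*, its stabilising partner, measured 41.7, 33.9 and 26.0 CPM, with -0.30 and -0.68 (-0.78 to -0.58), and at 4 hours it was not past 1.5-fold by TMM (-0.51) or by the median of ratios (-0.47). *Ndufaf8* and the client *Ndufs7* were thus below Ctrl at both times and *Ndufaf5* above. *Ndufaf7*, a methyltransferase, measured 3.84, 4.55 and 2.17 CPM, with 0.25 (-0.06 to 0.56) and -0.83 (-1.18 to -0.47), and rests on 137 UMIs in Ctrl.

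*Ndufaf3* and *Ndufaf4*, partners in building the base of the matrix arm, measured 16.3, 18.4 and 12.6 CPM and 12.5, 15.9 and 14.8 CPM, with log2 ratios in LP4 of -0.37 (-0.53 to -0.21) and 0.24 (0.08 to 0.41). *Ndufaf1*, of the membrane arm assembly complex, measured 8.66, 7.51 and 6.50 CPM, with -0.41 in LP4. *Ndufaf2*, a late factor, measured 18.1, 16.2 and 18.6 CPM, and *Ndufaf6* measured 8.52, 8.25 and 8.81 CPM. Both had intervals that hold 0 in LP4. Among 13 other assembly factors, the median log2 ratio was 0.04 in LP1 and -0.33 in LP4, and in LP4 3 were lower (23.1%) and 3 higher by at least 1.5-fold, beside 30.8% and 20.6% of all genes.

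*Ndufa4*, named with complex I but now counted as a subunit of complex IV (cytochrome c oxidase), measured 197 CPM in Ctrl, against 202 in LP1 and 244 in LP4, with log2 ratios of 0.03 (-0.01 to 0.08) and 0.31 (0.27 to 0.35). Its paralogue *AA467197*, which in inflamed cells is known to take its place, measured 0.588, 1.28 and 26.4 CPM, from 21 UMIs in Ctrl, with log2 ratios of 1.12 (0.39 to 1.90) in LP1 and 5.49 (4.87 to 6.18) in LP4, or 6.16 without the cells that held markers of other cell types. It overlaps *Mir147* on its own strand, a gene that is not in the matrices. *Ndufa4l2*, a paralogue induced by low oxygen, had 0 UMIs in Ctrl, against 1 in LP1 and 0 in LP4. The upper bound of its counting interval was 0.103 CPM in Ctrl and 0.0601 CPM in LP4.

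Over all kept cells, the complex I genes of the mitochondrial genome stood the other way. The 7 genes summed to 3524 CPM in Ctrl, against 4839 in LP1 and 5897 in LP4, which is 137% and 167% of Ctrl. *mt-Nd1*, which forms the junction of the arms, measured 1209, 1773 and 2432 CPM, with log2 ratios of 0.55 and 1.01. *mt-Nd4*, a proton pump subunit, measured 676, 1177 and 1345 CPM, with 0.80 and 0.99. *mt-Nd5*, another pump subunit, measured 383, 369 and 357 CPM, with -0.05 and -0.10, and *mt-Nd4l* was below Ctrl at 169, 119 and 156 CPM. The mitochondrial share of all UMIs was also higher in LP1 and LP4. In cells with 2 to 3% mitochondrial UMIs the 7 genes summed to 4234, 4212 and 4009 CPM, in those with 3 to 4% to 5972, 5852 and 6432 CPM, and in those with 4 to 5% (17 Ctrl cells) to 6774, 7346 and 8955 CPM. These genes are themselves part of the mitochondrial share, and its part in their sum over all kept cells was not tested.

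Nuclear genes of the other respiratory complexes are given for comparison. The median log2 ratio in LP1 and LP4 was 0.38 and 0.09 for 4 genes of complex II, -0.32 and -0.28 for 9 of complex III, -0.43 and -0.42 for 10 of complex IV and -0.15 and -0.22 for 15 of complex V (ATP synthase). In each of complexes III to V, genes lay on both sides of Ctrl, as in complex I. At 4 hours 4 of 9, 2 of 10 and 5 of 15 were lower by at least 1.5-fold, shares on both sides of the 30.8% of all genes. By the median of ratios the medians of complexes III to V at 4 hours were -0.073, -0.21 and -0.0091. In complex II *Sdhd* measured 13.3, 20.4 and 41.6 CPM and *Sdhb* 116, 149 and 74.7 CPM. Between 1 and 4 hours the medians were -0.07 (0.02 by TMM, 0.06 by the median of ratios), 0.04, 0.10 and -0.15 for complexes II to V, beside -0.17 for complex I and -0.50 for its core.

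**Figure D3:**
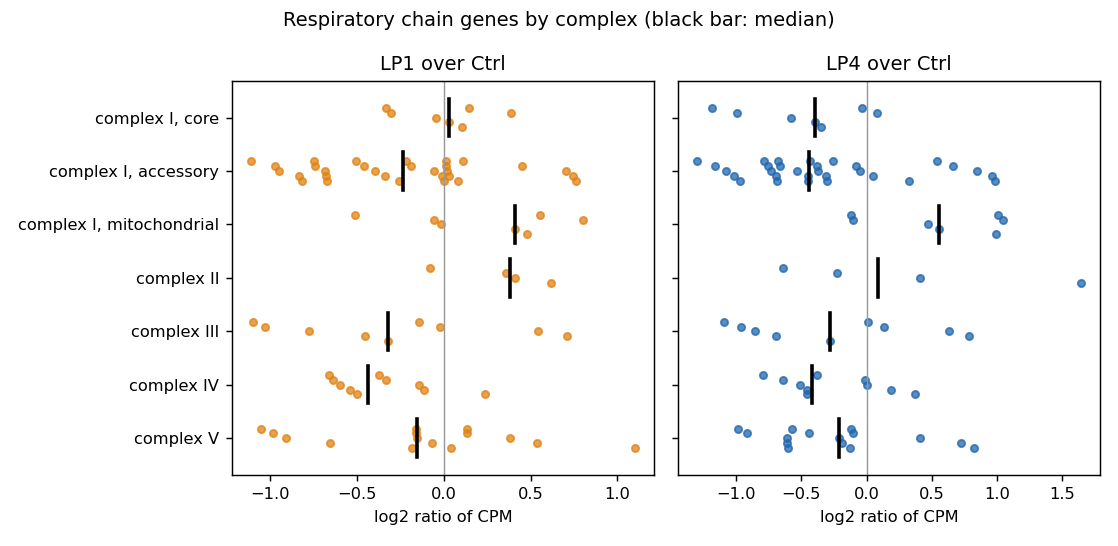
Log2 ratio of CPM to Ctrl in LP1 (left) and LP4 (right) for each gene of the respiratory chain, 1 point a gene and the median of a group as a black bar, with complex I split into nuclear core, nuclear accessory and mitochondrial genes. The core median moves from 0.03 to -0.39 between the panels, the accessory median from -0.24 to -0.44, and the mitochondrial median stays above 0 at 0.41 and 0.55.

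Of 12 regulators of mitochondrial gene expression, 11 passed the minimum, with a median log2 ratio of -0.01 in LP1 (0.06 by TMM, 0.07 by the median of ratios) and 0.04 in LP4. *Yy1*, whose core site is printed above, measured 121 CPM in Ctrl, against 106 in LP1 and 126 in LP4, with log2 ratios of -0.19 and 0.05. *Nrf1*, the regulator of many respiratory genes, measured 40.9, 37.8 and 58.9 CPM, with -0.11 and 0.53. *Gabpa*, which binds ETS sites, measured 14.4, 14.5 and 22.9 CPM, with 0.01 and 0.67. Others went the other way in LP4, with log2 ratios of -0.74 for *Tfb1m*, -0.58 for *Ppargc1b*, -0.55 for *Polrmt* and -0.49 for *Tfam*. Of the 11 regulators, the counting interval in LP4 lay below 0 for 5 and above 0 for 4, again with no like count over all genes. The 7 subunits with AAGATGGC at the start codon had a median log2 ratio of -0.31 in LP1 and -0.69 in LP4, and the 26 without it -0.12 and -0.36. The ranges overlapped, from -1.19 to -0.08 for the former and from -1.30 to 0.99 for the latter in LP4. In LP4 over LP1 the medians were -0.16 with AAGATGGC and -0.21 without it. For the 4 subunits with the ETS letters, the medians in LP1 and LP4 were 0.05 and -0.47, and for the 29 without -0.26 and -0.43. The 3 with the NRF1 letters had -0.34 and -0.43, and the 30 without -0.20 and -0.42. With the GC box 15 subunits had -0.19 and -0.35, and the 18 without it -0.26 and -0.56.

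Transcript length was compared since most subunits have short messages. The length of a gene was that of its longest principal coding transcript in GENCODE vM21, and 36 subunits had one. At 1 hour, the 7 subunits under 600 bases had a median log2 ratio of -0.75, and 98 other genes of that length with at least 10 CPM had -0.51. The share lower by at least 1.5-fold in that range was 57.1% of the subunits and 44.9% of the others. From 600 to 800 bases, the 8 subunits had 0.02 and the 183 others -0.02, from 800 to 1200 bases 9 subunits had 0.03 and 532 others 0.11, and from 1200 to 2000 bases 8 subunits had -0.28 and 1350 others 0.03. By this length, low ratios of the shortest genes at 1 hour were seen in other genes too. Only complex I subunits were left out of these, so the 98 still hold genes of other respiratory complexes, such as *Uqcr11* and *Atp5k*. Ribosomal protein genes were not left out either, and a comparison without these classes was not made. With the median length of a gene's coding transcripts in its place, 12 subunits were under 600 bases, with a median of -0.48 and 41.7% lower by 1.5-fold, and 310 other genes had -0.12 and 19.4%. The distance between subunits and other short genes at 1 hour thus depends on the length used.

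By principal transcript length, the differences from genes of like length were larger at 4 hours. The subunits had medians of -0.79, -0.42, -0.35, -0.68 and -0.17 in the 5 length ranges in rising order, and the other genes -0.43, -0.32, -0.23, -0.15 and -0.03. Relative to the median of other genes in its own range, a subunit lay lower by a median of 0.05 in LP1 and 0.19 in LP4. At 4 hours 25 of 36 lay below their range, among them 6 of 7 core and 19 of 29 accessory subunits. For the core the median distance was -0.24 in LP4, and in LP1 it was -0.0018. For the accessory subunits it was -0.13 in LP4 and -0.077 in LP1. Across the 36 subunits, length and log2 ratio had a Spearman rho of 0.27 in LP1 and 0.14 in LP4, points that share the same 2 libraries each. Over 7891 other genes with at least 10 CPM it was -0.11 and 0.06. For gene span it was 0.31 and 0.33 over 37 subunits, and -0.08 and 0.05 over 8062 others. By the median length of coding transcripts, the distances from other genes were larger at 4 hours from 600 to 2000 bases. Under 600 bases and over 2000 (1 subunit) they were smaller. Under 600 bases the subunits had -0.55 in LP4 and the 310 others -0.34, beside -0.48 and -0.12 in LP1.

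**Figure D4:**
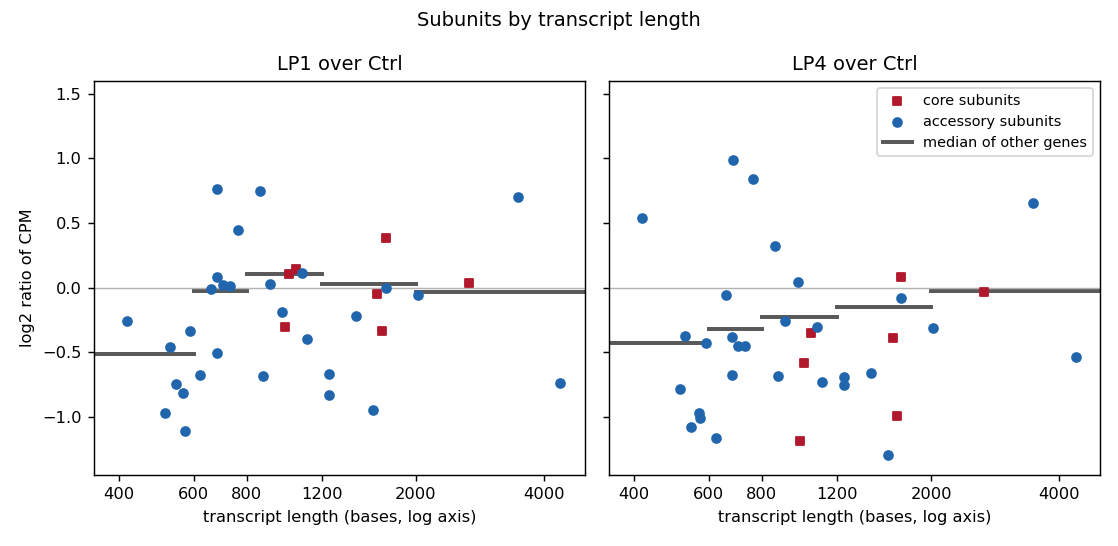
Log2 ratio of CPM to Ctrl against transcript length (bases, log axis) in LP1 (left) and LP4 (right) for 36 subunits, core as red squares and accessory as blue circles. Grey lines are the medians of other genes with at least 10 CPM in 5 length ranges, at -0.51 below 600 bases in LP1 and between -0.43 and -0.03 in LP4, with 25 of 36 subunits below them in LP4.

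The subunits were closer to each other in level after *Bb*LP. On the CPM scale of 3′ tags, 1 per captured transcript and not divided by length, the highest and lowest subunits of Ctrl were *Ndufa2* and *Ndufb3*, 13.4-fold apart. In LP1 they were *Ndufb8* (331 CPM) and *Ndufa3*, 12.4-fold apart, and in LP4 the same genes, 7.92-fold apart. The upper quartile exceeded the lower by 2.72-fold in Ctrl, against 2.05-fold in LP1 and 1.86-fold in LP4. The 5 most abundant subunits held 34.4%, 30.8% and 28.6% of the subunit sum. The Spearman rho between the CPM in Ctrl and the log2 ratio was -0.48 in LP1 and -0.57 in LP4 over 37 subunits, and -0.12 and -0.16 over 8066 other genes. The Ctrl value enters both measures of each pair.

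Single cells were then compared at equal depth. With every cell thinned to 2000 UMIs, a Ctrl cell held a median of 9 subunit UMIs (5th to 95th percentile 4 to 16), an LP1 cell 8 (3 to 13) and an LP4 cell 7 (2 to 12). The means were 9.74, 7.92 and 6.84. This used 5949, 5052 and 4625 cells, and 122, 13 and 45 shallower ones were left out. The distributions overlapped over most of their width. Drawing 2000 UMIs from a cell by itself spreads counts this low, and its part in the overlap was not tested.

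**Figure D5:**
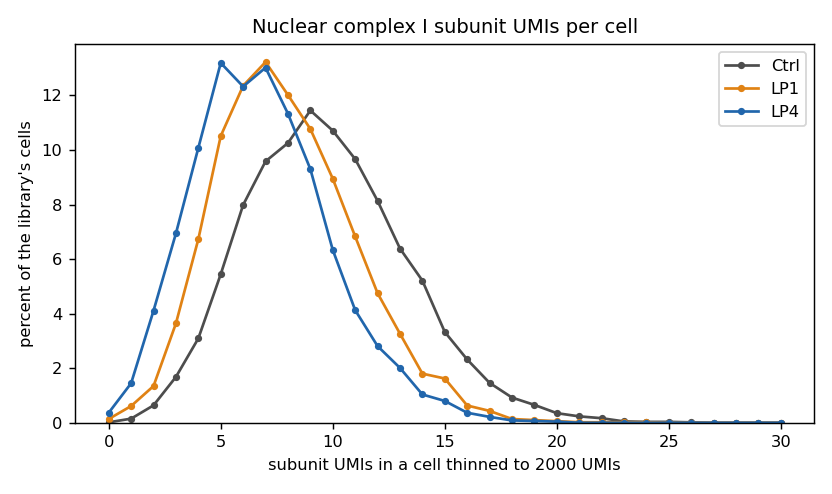
Percent of the cells of each library (y axis) by the number of nuclear complex I subunit UMIs in the cell after thinning to 2000 UMIs (x axis), Ctrl in grey, LP1 in orange, LP4 in blue. The curve of LP4 lies to the left of LP1 and that of LP1 to the left of Ctrl, with medians of 7, 8 and 9.

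Cells were also compared within ranges of total UMIs. In cells with 4000 to 8000 UMIs (3164 Ctrl, 1694 LP1 and 757 LP4 cells) the subunits summed to 4934, 3793 and 2987 CPM, a log2 ratio of -0.38 in LP1 and -0.72 in LP4. In cells with 8000 to 16000 UMIs (1089, 2625 and 2558) they summed to 5055, 4070 and 3454 CPM, with -0.31 and -0.55. Over the 4 ranges from under 4000 to over 16000 UMIs, the log2 ratio of the sum lay between -0.38 and -0.26 in LP1 and between -0.72 and -0.41 in LP4. In LP4, 28 of 37 subunits were below Ctrl in all 4 ranges, and 5 were above in all 4, *Ndufb3*, *Ndufc2*, *Ndufab1*, *Ndufb1-ps* and *Ndufa1*. In LP1, 19 were below in all 4 and 9 above. How many of all genes kept 1 direction over the 4 ranges was not counted. In cells with 5000 to 10000 UMIs some other members changed sign. *Ndufs1* was then at -0.09 and *Ndufa4* at -0.09 in LP1 over Ctrl, and *Ndufa4* was at 0.01 in LP4. In LP4 over Ctrl *Ndufa8* was at -0.11, *Ndufv2* at -0.19, *Ndufaf2* at -0.45, *Ndufaf6* at -0.55 and *Ndufaf4* at -0.46, and *Ndufaf4* was also below 0 in LP1, at -0.23.

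The mitochondrial share of a cell was treated likewise. In cells with 2 to 3% mitochondrial UMIs (2653 Ctrl, 2515 LP1 and 1589 LP4 cells), the nuclear subunits summed to 5138, 3907 and 3384 CPM. The log2 ratios there were -0.39 (-0.41 to -0.38) in LP1 and -0.60 (-0.62 to -0.59) in LP4, further from 0 than in all kept cells. Over the 5 ranges of the kept cells, they lay between -0.39 and -0.27 in LP1 and between -0.60 and -0.53 in LP4. In cells of 5% and over, which the limit removed, the ratios were 0.35 and 0.16 and rest on 18 Ctrl cells. In cells with at least 0.1% of UMIs from cycling markers (546, 473 and 432), the subunits summed to 5090.5, 4228 and 3604 CPM, with -0.27 and -0.50, and in the others to 4928, 3999 and 3527 CPM, with -0.30 and -0.48.

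The kit marks strand, but whether the counting set aside reads over a gene on the other strand is not given in the sources used here. Exons of 14 of the 37 subunits overlap those of a counted gene on the other strand, among them *Ndufs1*, *Ndufs3*, *Ndufa2*, *Ndufa11* and *Ndufa3*. The other 23 had a median log2 ratio of -0.19 in LP1 and -0.43 in LP4. No exon overlap with a counted gene on the same strand was found.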

How the data were processed

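The authors aligned 3′ single-cell reads to mm10 with Cell Ranger (version 7.1.0 in the submitters' processing notes) and deposited raw UMI counts. The study's stated limits were applied (UMIs and genes each above 500, mitochondrial share below 5%). More cells were kept this way than the paper reports for its analysis, so the 2 sets of cells are not the same. Doublets were not removed, and UMIs were summed per library and scaled to CPM. The depth of the sums was 35688939 to 61402275 UMIs. Intervals are exact at 95% (Poisson for CPM, conditional binomial for ratios); a count of 0 was given a floor of 3. Members, lists and the rule for named genes (core and *Ndufaf* genes, the 5 lowest and 5 highest accessory subunits in LP1 and LP4 over Ctrl with at least 10 CPM, the most and least abundant, and *Ndufa4* relatives) were chosen with earlier results of these data known. Other scalings, cell filters, depths and lists were tried, and the functions were tested on simulated data. The study's tests over cells were not repeated. One core subunit enters the sums, medians and counts and is not reported here by itself. Thinning used seed 20. TMM came from edgeR 4.0.16 in R 4.3.3, and the rest from Python 3.11.15 with scipy 1.17.1, numpy 2.4.6, pandas 2.3.3 and matplotlib 3.10.9.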

Additional observations from a re-analysis of the deposited data

How the results depend on the processing

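The median log2 ratio of the subunits kept its sign under the alternatives of scaling, filters, depth and list given here. In the cells over the mitochondrial limit taken alone (18 of Ctrl) it was 0.40 in LP1 and 0.060 in LP4. By TMM and by the median of ratios it was -0.12 and -0.11 in LP1 over Ctrl, -0.26 and -0.22 in LP4 over Ctrl, and -0.075 and -0.042 in LP4 over LP1. With *Ndufa4* included it was -0.12 in LP1 over Ctrl. In cells with 5000 to 10000 UMIs it was -0.60 in LP4 over Ctrl and -0.36 in LP4 over LP1. The count of subunits lower by at least 1.5-fold in LP4 over Ctrl was 9 by TMM, 7 by the median of ratios and 21 in cells with 5000 to 10000 UMIs. In LP4 over LP1 it was 1 by the median of ratios and 7 in those cells. The share of all genes lower by as much in those cells was not counted, so 21 and 7 have no background beside them. In those cells, core minus accessory in LP4 over Ctrl was -0.13. The other cell filters, weighting, removal of ribosomal and mitochondrial genes and the UMI minimum moved the medians by less than counting error and the counts by under 1.5-fold. With 1 pooled library per condition, no replicate could be left out. No paired analysis was possible because each group holds 1 library.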
